A study of Mus musculus with 12 samples.

Results

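The 9 genes described here carry glucose output and glycogen handling in liver: G6pc, Pck1, Fbp1, Pcx and Slc37a4 of gluconeogenesis, the coactivator gene Ppargc1a, and Gys2, Pygl and Gyg of glycogen metabolism. They were chosen by symbol, through the array platform's gene table, out of 19935 genes with a probe set of their own, and all 9 were found, on 10 probe sets. No cutoff on their values was applied, but the members were chosen with earlier results of these data known. The arrays held RNA from livers of male mouse fetuses of the strain 129/S6 (taconic) at 18.5 days post coitum, 6 from wild-type fetuses and 6 from fetuses labelled macroH2A1 macroH2A2 double knockout. Wild-type recipient females carried mixed litters of the 2 genotypes. The pregnant mice lived on a light cycle of 12 h with lights on at 8 AM, ate low fat chow freely, had no special treatment, and were killed between 9 and 10 AM. The double knockout is described only as lacking both genes. The labels give no way to tell which fetuses shared a recipient, so the spread between arrays may hold litter as well as fetus.

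A fetus takes its glucose from the mother and its liver stores glycogen late in gestation. At birth that supply stops, glycogen is broken down, and the liver begins to make glucose from lactate, alanine and glycerol. Pyruvate carboxylase (Pcx) and phosphoenolpyruvate carboxykinase (Pck1) open the pathway, fructose-1,6-bisphosphatase (Fbp1) drives its middle, and glucose-6-phosphatase (G6pc) with the glucose-6-phosphate transporter (Slc37a4) releases glucose from the endoplasmic reticulum. Glucagon through cyclic AMP, and glucocorticoids, raise Pck1 and G6pc transcription, and insulin lowers it, while Pck1 is known to stay low in liver until birth. MacroH2A histone variants replace ordinary H2A in part of the chromatin.

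Promoter windows are shown for G6pc, Pck1 and Ppargc1a, whose levels ranged most widely among the double-knockout arrays, and for Pygl, whose levels ranged least. Each window runs from 250 bases before to 50 after the annotated start in RefSeq on GRCm38.p6, a C57BL/6J assembly and so another strain than that of the fetuses. The table matched 8 of the 9 genes, all but Gys2. The windows are chr11:101367466-101367765 on the plus strand for G6pc, chr2:173152823-173153122 on the plus strand for Pck1, chr5:51567676-51567975 on the minus strand for Ppargc1a and chr12:70227634-70227933 on the minus strand for Pygl. Capitals mark exact matches, on either strand, to the cyclic AMP response element half-site CGTCA, the HNF1 half-site GTTAAT and the TATA box TATAAA. The forkhead core TGTTTAC was searched too and had no match in the windows of those 8 genes, against a match in 3.6% of all windows. No matches overlapped in the windows shown.
G6pc: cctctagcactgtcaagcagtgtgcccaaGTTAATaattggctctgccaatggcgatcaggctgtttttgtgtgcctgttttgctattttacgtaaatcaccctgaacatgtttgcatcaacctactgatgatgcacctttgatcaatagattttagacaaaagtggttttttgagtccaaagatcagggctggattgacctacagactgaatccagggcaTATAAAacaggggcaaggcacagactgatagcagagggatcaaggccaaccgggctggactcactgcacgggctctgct
Pck1: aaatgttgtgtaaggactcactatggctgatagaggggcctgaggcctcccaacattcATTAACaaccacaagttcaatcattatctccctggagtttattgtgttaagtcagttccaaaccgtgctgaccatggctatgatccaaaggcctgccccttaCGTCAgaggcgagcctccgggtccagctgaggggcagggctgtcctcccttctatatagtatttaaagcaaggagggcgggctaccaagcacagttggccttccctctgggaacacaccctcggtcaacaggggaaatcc
Ppargc1a: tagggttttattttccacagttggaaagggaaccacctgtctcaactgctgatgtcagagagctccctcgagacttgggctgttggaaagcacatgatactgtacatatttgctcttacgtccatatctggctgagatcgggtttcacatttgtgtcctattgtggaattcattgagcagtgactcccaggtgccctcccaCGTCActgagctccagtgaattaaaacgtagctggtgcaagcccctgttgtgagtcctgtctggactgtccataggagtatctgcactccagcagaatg
Pygl: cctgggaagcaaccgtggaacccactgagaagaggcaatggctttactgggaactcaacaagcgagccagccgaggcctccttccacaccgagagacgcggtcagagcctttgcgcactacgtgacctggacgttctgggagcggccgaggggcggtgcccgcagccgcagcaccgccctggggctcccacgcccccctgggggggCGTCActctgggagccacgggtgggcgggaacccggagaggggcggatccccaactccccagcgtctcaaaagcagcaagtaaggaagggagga
CGTCA began at -90 from the start site in Pck1, at -49 in Ppargc1a and at -44 in Pygl. It lay on the opposite strand, read as TGACG, at 13 in Gyg, and a match was also present in 2 of the 3 windows of Slc37a4. Over all 32851 windows of this length, 20.8% held CGTCA on either strand. GTTAAT matched at -221 in G6pc, at -192 on the opposite strand in Pck1 and at -195 in Gyg, against 7.1% of all windows. TATAAA began at -29 in G6pc and at -32 in 1 of the 3 windows of Slc37a4, and was found in 13.6% of all windows. These are matches of letters and not measured binding.

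The tissue was checked first, with 3 hepatocyte genes named after their values were seen. Alb, the albumin gene, measured 14.07 to 14.29 on the 12 arrays, Afp, the fetal albumin relative, 13.73 to 13.93 and Ttr, transthyretin, 13.80 to 13.91 (log2 values, in a table whose highest value was 14.45). Kidney and fat, which also express Pck1, were followed through their own markers. The mean of 9 kidney markers was 6.67 to 6.80 on wild-type and 6.73 to 6.80 on double-knockout arrays, and that of 6 fat markers 6.26 to 6.50 and 6.27 to 6.45. Intestine markers had a mean of 7.95 on wild-type replicate 6 and 6.90 to 7.20 on the other 11 arrays. Array values come without a background measure, so low levels cannot be set apart from background. Macroh2a1, the macroH2A1 gene, was 1.71-fold lower in the double knockout (limma adjusted p = 3.5e-05), and Macroh2a2 differed by -0.09 on the log2 scale (adjusted p = 0.99). Whether their probes fall inside the deleted sequence is not stated in the labels, so this signal cannot show how much product is left.

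The question was whether loss of macroH2A altered these genes in late fetal liver, and none of the 9 passed the test. With limma, 0 of 9 had an adjusted p under 0.05, where 0.015% of all genes did, and 0 of 9 had an unadjusted p under 0.05, where 3.93% of all genes did. The wild-type and double-knockout arrays overlapped for all 9, against 0.211% of all genes whose groups did not overlap. Means were lower in the double knockout for 7 of 9, where 41.0% of all genes had lower means, and the median log2 difference was -0.02 against 0.01 over all genes. The direction leaned on 2 arrays. Without double-knockout replicates 3 and 5, left out after the values were seen, 2 of 9 means were lower and the median difference was 0.06. Those replicates were the lowest pair for 6 of the 9 genes, so their removal had to raise the double-knockout means of those genes. In bulk liver, fewer cells of a type and less RNA per cell cannot be told apart.

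**Figure D1:**
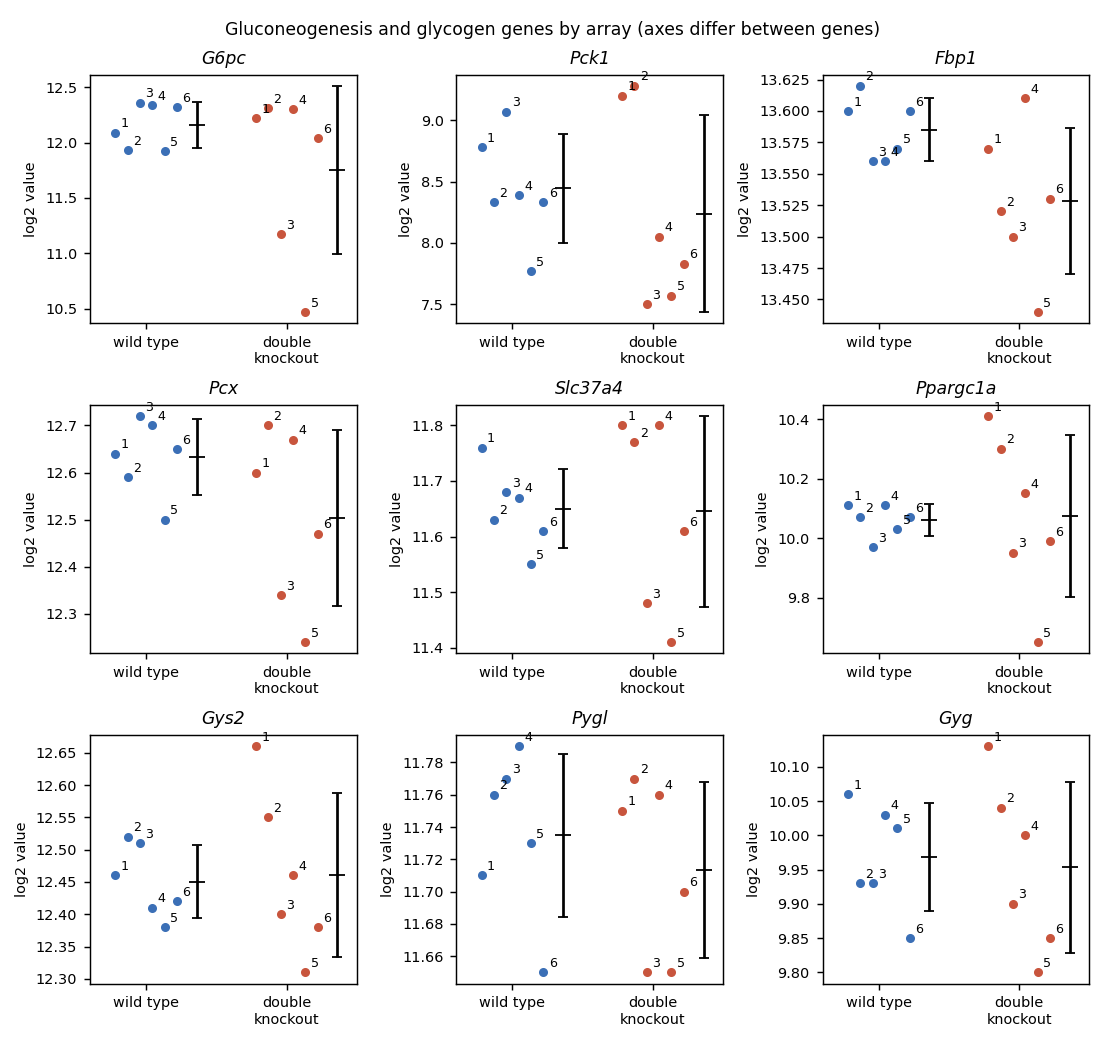
Log2 value of each of the 9 genes on each array, with wild-type arrays in blue and double-knockout arrays in red, replicate numbers beside the points, and mean ± SD (n = 6 each) as black bars; vertical axes differ between genes. Double-knockout replicates 3 and 5 lie at the bottom for G6pc, Pck1, Fbp1, Pcx, Slc37a4 and Ppargc1a.

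G6pc encodes the last step of glucose release. It measured 12.09, 11.93, 12.36, 12.34, 11.92 and 12.32 on wild-type replicates 1 to 6, and 12.22, 12.31, 11.17, 12.30, 10.47 and 12.04 on the double-knockout replicates. Double-knockout replicates 1, 2, 4 and 6 lay within the wild-type range, while replicates 3 and 5 lay below every other array. Against the wild-type mean, replicate 3 was 1.98-fold lower and replicate 5 was 3.23-fold lower. The double-knockout arrays thus spanned 3.58-fold, and the wild-type arrays 1.35-fold. The mean went from 12.16 ± 0.20 to 11.75 ± 0.76 (SD, n = 6 each), a log2 difference of -0.41 with a 95% interval from -0.98 to 0.17 (limma adjusted p = 0.99; exact 2-sided permutation p = 0.30). Leaving out 1 array moved that difference between -0.52 and -0.15, and leaving out replicates 3 and 5 together turned it to 0.06.

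Slc37a4, whose transporter brings glucose-6-phosphate to that enzyme, measured 11.76, 11.63, 11.68, 11.67, 11.55 and 11.61 on the wild-type arrays in order and 11.80, 11.77, 11.48, 11.80, 11.41 and 11.61 on the double-knockout arrays. Replicates 3 and 5 were again the lowest pair, and replicates 1, 2 and 4 lay above all wild-type arrays. The means were 11.65 ± 0.07 and 11.64 ± 0.17 (SD, n = 6 each), with a difference of -0.01 and a 95% interval from -0.16 to 0.14 (limma adjusted p = 0.996). Its sign turned under 11 of 22 alternatives.

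Pck1, at the entry to gluconeogenesis, varied most in wild type of the 9 genes. Its wild-type arrays read 8.78, 8.33, 9.07, 8.39, 7.77 and 8.33 in order, and its double-knockout arrays 9.20, 9.28, 7.50, 8.05, 7.57 and 7.83. Replicates 1 and 2 of the double knockout were higher than any wild-type array, and replicates 3 and 5 lower than any. Wild-type arrays spanned 2.47-fold and double-knockout arrays 3.42-fold. The means, 8.44 ± 0.45 and 8.24 ± 0.80 (SD, n = 6 each), differed by -0.21 with a 95% interval from -0.87 to 0.46 (limma adjusted p = 0.99). That difference was -0.06 without double-knockout replicate 3 and -0.41 without replicate 2. With the hepatocyte marker mean as a covariate it was 0.05.

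Pcx supplies oxaloacetate for the pathway. It read 12.64, 12.59, 12.72, 12.70, 12.50 and 12.65 on wild-type replicates 1 to 6, and 12.60, 12.70, 12.34, 12.67, 12.24 and 12.47 on the double-knockout replicates. Replicates 3, 5 and 6 of the double knockout lay below all wild-type arrays, and the other 3 within their range. The difference of means was -0.13 with a 95% interval from -0.29 to 0.03 (limma adjusted p = 0.99; unadjusted p = 0.11, the smallest of the 9). Leaving out double-knockout replicate 2 took the unadjusted p to 0.0385 and the difference to -0.17, and leaving out replicate 5 gave -0.08.

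Fbp1 had the narrowest range of the gluconeogenic enzymes. Wild-type arrays measured 13.60, 13.62, 13.56, 13.56, 13.57 and 13.60 in order, and double-knockout arrays 13.57, 13.52, 13.50, 13.61, 13.44 and 13.53 in order. Replicates 2, 3, 5 and 6 lay below all wild-type arrays, and replicate 4 among the highest. The means differed by -0.06, and the 95% interval of -0.14 to 0.02 was the narrowest of the 9 (limma adjusted p = 0.99; exact 2-sided permutation p = 0.056, where the smallest possible is 0.0022). It stayed negative under all 22 alternatives run, from -0.07 to -0.01.

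Ppargc1a encodes PGC-1alpha, the coactivator through which fasting signals raise gluconeogenic genes. Its wild-type arrays read 10.11, 10.07, 9.97, 10.11, 10.03 and 10.07, and double-knockout arrays 10.41, 10.30, 9.95, 10.15, 9.65 and 9.99. The wild-type values lay close together, while the double-knockout values extended beyond them on both sides. Standard deviations of 0.05 and 0.27 for wild type and double knockout gave a ratio of 4.95, the highest of the 9. The means differed by 0.02 with a 95% interval from -0.19 to 0.23 (limma adjusted p = 0.996). A second probe set of this gene had a difference of -0.001 and standard deviations of 0.04 and 0.19, with double-knockout replicate 1 again highest at 9.26 and replicate 5 lowest at 8.76. Without the 4 arrays of narrowest spread over all probe sets (wild-type replicate 6 and double-knockout replicates 3, 5 and 6), a choice made after the values were seen, the difference was 0.23, with an unadjusted limma p of 0.0041 and no call after adjustment. Those double-knockout replicates held the lowest Ppargc1a values of their group, 9.95, 9.65 and 9.99. Their removal had to raise the group mean, so this p cannot count as support for a genotype difference.

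Of the 3 glycogen genes, Gys2, the liver glycogen synthase, measured 12.46, 12.52, 12.51, 12.41, 12.38 and 12.42 in wild type and 12.66, 12.55, 12.40, 12.46, 12.31 and 12.38 in the double knockout. Double-knockout replicates 1 and 2 were the highest of all arrays and replicate 5 the lowest. Its difference was 0.01 with a 95% interval from -0.11 to 0.13. Gyg, glycogenin, which primes new glycogen chains, read 10.06, 9.93, 9.93, 10.03, 10.01 and 9.85 in wild type and 10.13, 10.04, 9.90, 10.00, 9.80 and 9.85 in the double knockout, with a difference of -0.02 and a 95% interval from -0.14 to 0.11. Replicate 1 of the double knockout was the highest array and replicate 5 the lowest. Pygl, the liver glycogen phosphorylase that breaks glycogen down, spanned 11.65 to 11.79 in wild type and 11.65 to 11.77 in the double knockout. Its standard deviations of 0.05 in each group were nearly equal, with a ratio of 1.06, and its difference was -0.02 with a 95% interval from -0.10 to 0.07.

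**Figure D2:**
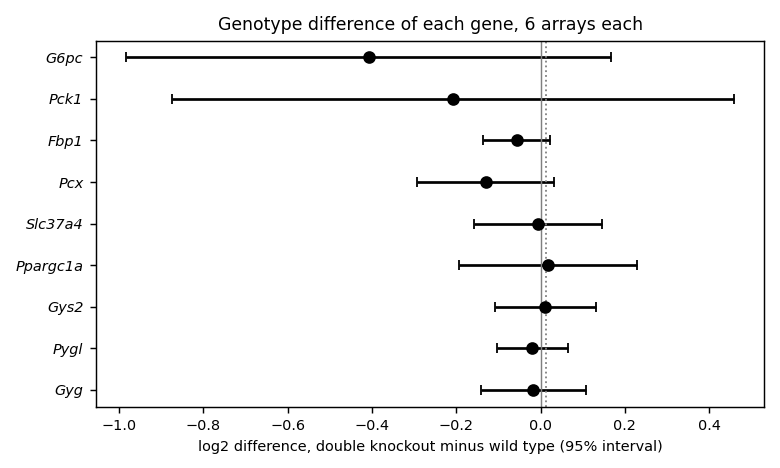
Log2 difference of means, double knockout minus wild type, for each of the 9 genes with its 95% interval from limma (6 arrays each); the solid line marks 0 and the dotted line the median over all genes, 0.01. Every interval includes 0, and those of G6pc and Pck1 are the widest.

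The genotypes differed more in the scatter of these genes than in their means, given here as a description with no test. The standard deviation was larger in the double knockout for 9 of 9 genes, against 55.9% of all genes, and at least 2 times larger for 6 of 9, against 13.2%. The median ratio of double-knockout to wild-type standard deviation was 2.20 for the 9 genes and 1.08 over all genes. Wider scatter was not particular to the 9. The ratio was 2.57 for genes that liver raises around birth (larger in 7 of 7) and 2.38 for endothelial markers (7 of 8). For other gluconeogenesis genes it was 1.57 (14 of 18), and for phosphatase subunits and kinases of glycogen 1.0 (6 of 12). All 9 genes were read on the same arrays, so these counts are not separate observations. Double-knockout replicate 5 was the lowest of the 12 arrays for 7 of 9 genes, the exceptions being Pck1 and Pygl, and for 15.3% of all genes. Replicates 3 and 5 were the lowest pair for 6 of 9 genes and for 5.51% of all genes. Apart from them, G6pc read 12.04 to 12.31 in the double knockout, within the 11.92 to 12.36 of wild type. Ppargc1a without them still read 9.99 to 10.41, against 9.97 to 10.11 in wild type. Standard deviations without replicates 3 and 5 were not computed, so their part in the ratios was not tested. Upward, double-knockout replicates 1 and 2 were the highest pair for Pck1, Ppargc1a and Gys2.

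Other measures moved with those arrays. Across 13 hepatocyte markers the mean was 13.22 and 13.26 for double-knockout replicates 5 and 3, while the other 10 arrays gave 13.31 to 13.47. Cyp2e1, named after its values were seen, fell most, to 12.12 and 11.83 on replicates 3 and 5 against 12.60 to 13.22 elsewhere. Those replicates were the lowest pair for 3 of the 13 markers. The mean, used also as a covariate, thus need not track hepatocyte content. Alb and Afp on these arrays lay within the range of the rest, near the highest value of the table, 14.45. Whether signal saturates there was not tested. The mean of 9 erythroid markers was 11.76 on replicate 3 and 11.75 on replicate 5, the highest of the 12, with 11.40 to 11.74 elsewhere. The interquartile range of log2 values was 2.77 on replicate 5 and 2.89 on replicate 3. It was 2.81 on wild-type replicate 6 and on double-knockout replicate 6, whose G6pc was 12.32 and 12.04. On the remaining arrays it was wider, 2.92 to 3.02. The mean of 8 exocrine pancreas markers was 7.32 on replicate 3 and 10.09 on replicate 5, near opposite ends of its range of 7.22 to 10.16. Some blood cell markers had lower means too, with 0 calls by limma, where 41.0% of all genes had lower means. Lower were 10 of 10 neutrophil markers (list mean 11.30 to 11.50 in wild type, 11.19 to 11.33 in the double knockout). So were 7 of 8 lymphoid markers (8.02 to 8.17 and 7.80 to 8.02). By limma 6 and 4 of these had an unadjusted p under 0.05, where 3.93% of all genes did. Higher means were held by 8 of 8 exocrine pancreas, 6 of 6 fat, 7 of 9 kidney and 7 of 8 muscle markers, also with 0 calls. The part of cell content and array spread in the low G6pc values was not tested. With the hepatocyte mean as a covariate the G6pc difference was -0.15, and with the interquartile range as a covariate -0.28, neither past the threshold.

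**Figure D3:**
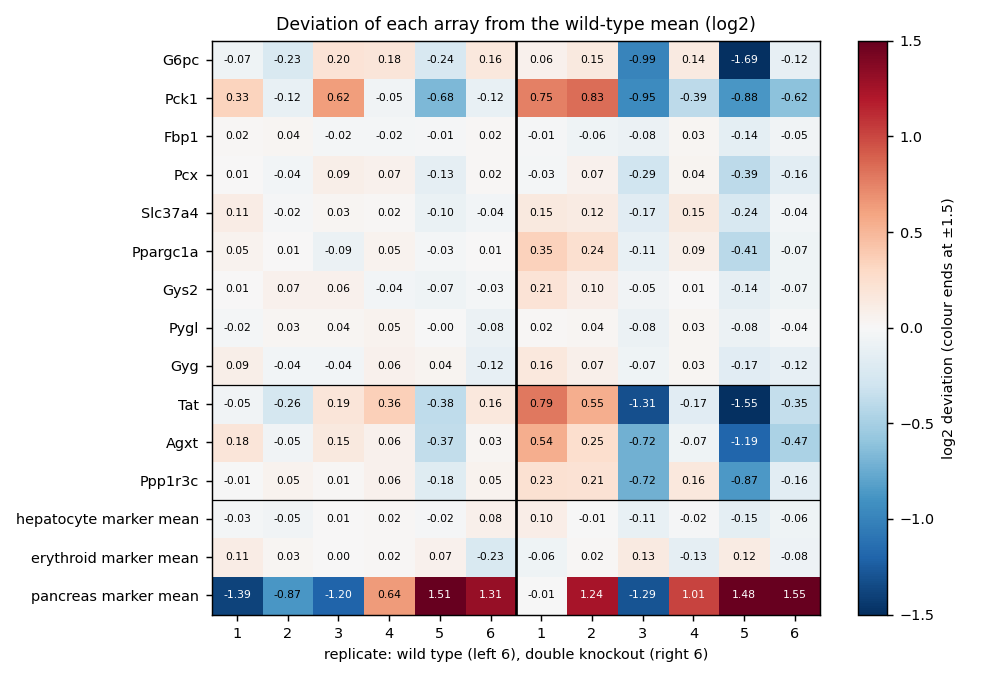
Deviation of each array (columns) from the wild-type mean on the log2 scale, for the 9 genes, for Tat, Agxt and Ppp1r3c, and for the means of 3 marker lists; numbers in the cells give the deviations, and the colour scale ends at 1.5 on either side. G6pc, Pck1, Tat, Agxt and Ppp1r3c are lowest on double-knockout replicates 3 and 5, and the pancreas marker mean is low on replicate 3 and high on replicate 5.

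Whether the genes varied together was examined for G6pc against the other 8 genes, the hepatocyte marker mean and the array interquartile range, 10 relations in all over 12 arrays. The relation with Pcx was the closest, with Pearson r = 0.94 and Spearman rho = 0.94 (permutation p adjusted over the 10 relations 0.0003 and 0.0002). It held without double-knockout replicates 3 and 5, the arrays farthest from the G6pc median, at r = 0.82, and was 0.88 within wild type and 0.94 within the double knockout (6 arrays each). Pck1 gave r = 0.66 and rho = 0.75 (adjusted permutation p = 0.0157 and 0.0235) and r = 0.51 without those arrays.

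The other correlations with G6pc were also lower without replicates 3 and 5, to differing degrees. Fbp1 had r = 0.74 but rho = 0.21 (adjusted permutation p = 0.0157 and 0.513), and r = -0.22 without them. Slc37a4 went from r = 0.82 to 0.50, Ppargc1a from 0.75 to 0.27 and Pygl from 0.65 to 0.22, with adjusted permutation p for r of 0.00257, 0.0157 and 0.022. Gys2 and Gyg each had r = 0.56 (adjusted permutation p = 0.0659 and 0.0631), falling to 0.24 and 0.10. The hepatocyte marker mean gave r = 0.80 and rho = 0.78 (adjusted permutation p = 0.00257 and 0.0191). Without the pair these were 0.54 and 0.62, and within wild type alone r was 0.75. Wild-type r was 0.32 for Slc37a4, and from -0.54 to 0.01 for Fbp1, Ppargc1a, Gys2, Pygl and Gyg. The interquartile range gave r = 0.53 and rho = 0.26 (adjusted permutation p = 0.0631 and 0.459), and r = -0.07 without the pair. All these values come from the same arrays and share whatever affects an array as a whole.

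**Figure D4:**
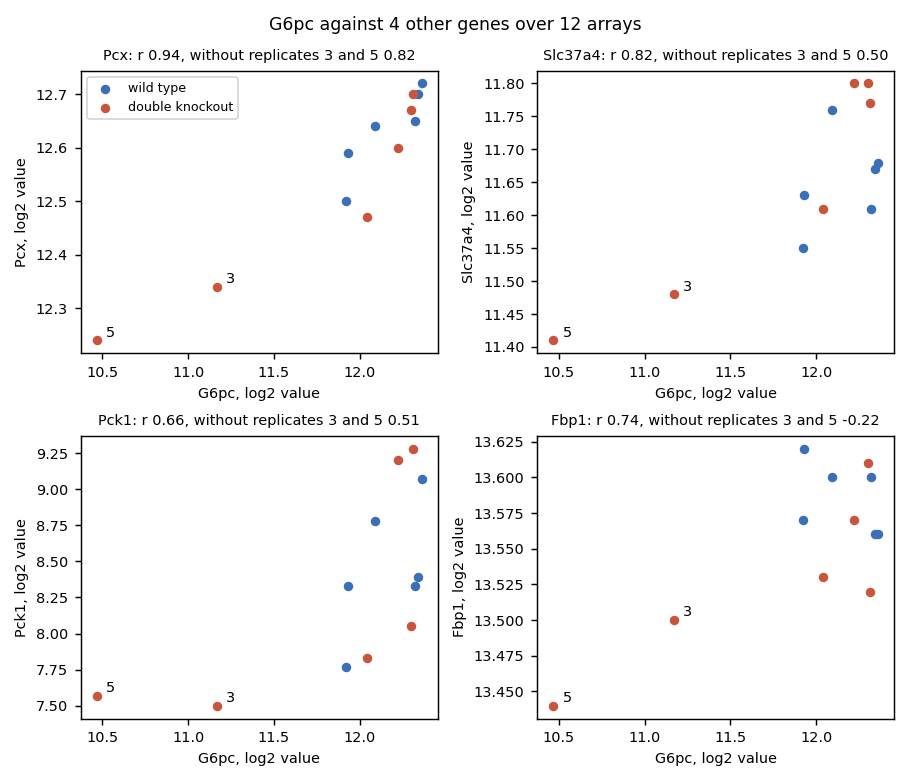
Log2 value of Pcx, Slc37a4, Pck1 and Fbp1 (vertical axes) against that of G6pc (horizontal axis) on the 12 arrays, wild type in blue and double knockout in red, with double-knockout replicates 3 and 5 numbered. Pcx follows G6pc among the other 10 arrays too (r = 0.82), and Fbp1 does not rise with it there (r = -0.22).

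Among 9967 genes with a mean above that of the median gene, those whose pattern over the 12 arrays was most like that of G6pc were Sult3a1, a sulfotransferase gene (r = 0.974), Scp2, which encodes a sterol carrier protein (0.971), Gpc4, a glypican gene (0.971), Pdxk, the pyridoxal kinase gene (0.969), and Trp53inp2 (0.965). Without double-knockout replicates 3 and 5 these correlations were 0.68, 0.79, 0.80, 0.91 and 0.81. Sult3a1 measured 8.43 to 9.00 in wild type and 9.40, 9.21, 7.17, 9.22, 5.40 and 8.68 in order on the double-knockout arrays. Pdxk, whose correlation fell least, measured 9.95 to 10.22 in wild type and 9.70 and 9.60 on replicates 3 and 5. None of the 5 passed the genotype test (limma adjusted p = 0.99 each).

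The rest of the pathway gave the same count of calls. Of 22 other genes of gluconeogenesis and its shuttles and transporters, 18 were measured. Of these, 12 had lower and 6 higher means, with a median difference of -0.03. By limma, 0 passed in either direction and 0 had an unadjusted p under 0.05. Got2, the mitochondrial aspartate aminotransferase gene, differed by -0.07 (limma unadjusted p = 0.070, adjusted 0.99; exact permutation p = 0.015). Slc37a1, a relative of Slc37a4, differed by -0.10 and G6pc3, the widely expressed glucose-6-phosphatase gene, by -0.08. Among isoforms used mainly outside liver or in mitochondria, Pck2 differed by 0.05, Fbp2 by 0.01, Gys1 by -0.06, Pygb by 0.04 and Pygm by -0.05. On double-knockout replicates 3 and 5, where Pck1 was lowest, Pck2 measured 9.20 and 9.15 within a range of 8.91 to 9.20 on the other arrays.

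Of 20 other glycogen genes 17 were measured, 8 lower and 9 higher, with a median difference of 0.003, 0 calls by limma and 0 at unadjusted p under 0.05. Ugp2, which makes UDP-glucose for glycogen, measured 10.83 to 11.11 on wild-type and 10.76 to 11.39 on double-knockout arrays and differed by 0.13 (limma unadjusted p = 0.16). Pgm2, a phosphoglucomutase gene, differed by -0.10 and Gaa, the lysosomal glucosidase gene, by -0.07. Of 12 phosphatase subunits and kinases that set the activity of glycogen synthase, 7 were lower and 5 higher, with a median of -0.01 and 0 calls by limma. By limma Ppp1r3f was the 1 gene of these with an unadjusted p under 0.05 (p = 0.022, adjusted 0.99, exact permutation p = 0.032). It measured 6.57 ± 0.08 and 6.75 ± 0.16 (SD, n = 6 each), a difference of 0.17, at a low level (percentile 28.1 of wild-type means). Its unadjusted limma p was 0.083 after quantile normalization and 0.031 with array weights. Ppp1r3g and Ppp1cc differed by 0.13 and 0.09. Ppp1r3c, which targets the phosphatase to glycogen and was chosen after its values were seen, measured 9.78 to 10.02 in wild type, 9.24 and 9.09 on double-knockout replicates 3 and 5, and 9.80 to 10.19 on the other 4.

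Of 23 regulators of these genes 21 were measured, 14 lower and 7 higher, with a median of -0.03, 0 calls by limma and 0 at unadjusted p under 0.05. Trib3, an inhibitor of insulin signalling, differed by 0.09, Hnf4a, a hepatocyte transcription factor, by -0.07 and Kat2a, an acetyltransferase gene, by -0.07. Hnf4a measured 11.85 and 11.77 on double-knockout replicates 3 and 5, and 11.96 to 12.13 on the other 10 arrays. Of 14 genes of hormone signalling 12 were measured and all 12 had lower means, with a median of -0.07 against 41.0% lower among all genes, and 0 calls by limma. Adra1b, an adrenergic receptor gene, differed by -0.18 (9.31 ± 0.13 and 9.13 ± 0.09, SD, n = 6 each). Its limma unadjusted p was 0.013 (adjusted 0.99), the 1 in that list under 0.05 by limma, and its exact permutation p was 0.024. Akt2, a kinase of insulin signalling, differed by -0.07, with the same exact permutation p of 0.024 but a limma unadjusted p of 0.0895. Gcgr, the glucagon receptor gene, differed by -0.14 and was lowest on double-knockout replicates 5 and 3 at 9.00 and 9.15. Without replicates 3 and 5, the lowest pair for 3 of the 12 genes, 6 of the 12 means were lower.

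Of 9 genes that liver raises around birth 7 were measured, 5 with lower and 2 with higher means, a median difference of -0.06, 0 calls by limma and 0 at unadjusted p under 0.05. Without double-knockout replicates 3 and 5, the lowest pair for 5 of the 7 genes, 1 of 7 was lower. Tat, tyrosine aminotransferase, a glucocorticoid target, read 9.04, 8.83, 9.28, 9.45, 8.71 and 9.25 in wild type and 9.88, 9.64, 7.78, 8.92, 7.54 and 8.74 in the double knockout. Replicates 1 and 2 were above and replicates 3 and 5 below all wild-type arrays, as for Pck1, and the span was 5.07-fold against 1.67-fold. Its means differed by -0.34 (95% interval -1.07 to 0.38) at a limma adjusted p of 0.99. Agxt, an aminotransferase gene of glyoxylate metabolism, differed by -0.28, with 9.09 on replicate 5 and 10.82 on replicate 1, and Hpd, an enzyme gene of tyrosine breakdown, by -0.09. The scatter was uneven within the list, with double-knockout standard deviations from 0.136 for Cps1, a urea cycle gene chosen after its values were seen, to 0.95 for Tat.

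**Figure D5:**
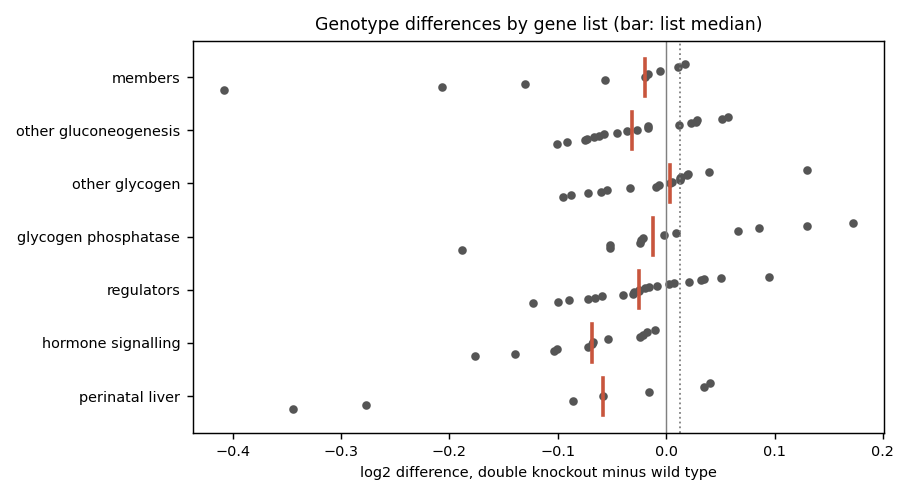
Log2 difference of means, double knockout minus wild type, for every measured gene (points) of the 9 members and 6 other lists; the red bar is the list median, the solid line 0 and the dotted line the median of all genes, 0.01. All 12 hormone signalling genes lie below 0, and no gene shown passed limma's test after adjustment.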

How the data were processed

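Livers of 12 fetuses were measured on 1 Affymetrix mouse gene array each. Values deposited by the authors are log2 per probe set, made with Affymetrix Expression Console per the submitters' processing notes; no label names its version, algorithm or background correction. Per the labels' protocols, RNA was extracted with Trizol and 250 ng was labelled. The number of arrays limits precision.

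Of 28815 probe sets, 21780 name 1 gene in the platform table; symbols were updated by gene ID, and the brightest probe set stood for each of 19935 genes. Genotypes were compared over all 12 arrays with limma 3.58.1 in R 4.3.3 (lmFit, eBayes, 2-sided, Benjamini-Hochberg over all genes, threshold 0.05), tested on simulated data. Single genes also had an exact permutation test over 924 splits; correlations used 100000 permutations. Genotype p-values set a difference against the spread between these arrays, taken as independent. Litter was not known and was not modelled.

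The members and lists were chosen with earlier results of these data known. Named were all members, the targeted genes, 3 genes of smallest p per list, isoforms, and 5 genes most like G6pc; for any other gene the text says that its values were known. Alternatives covered quantile normalization, dropping dim genes, a robust prior, weights per array, the replicate block, 2 covariates, averaged probe sets and left-out arrays. Promoters come from RefSeq on GRCm38.p6.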

Additional observations from a re-analysis of the deposited data

Results flagged for a closer look

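Of 78 groups of 6 arrays checked, 3 held an array far from the other 5 by Dixon's criterion, which chance meets in about 1 in 20 groups. Got2 measured 13.37 on wild-type replicate 1, with the next highest wild-type array at 13.29. Ppp1r3g measured 8.82 on the same array, with the next at 8.47. Hnf4a measured 11.96 on wild-type replicate 5, with the next lowest at 12.04. None of the 9 gluconeogenesis and glycogen genes was among them: the low G6pc values of the double knockout lay on 2 arrays, and this criterion looks for 1.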

How the results depend on the processing

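None of the 9 genes, nor any gene of the 6 other pathway lists, passed the threshold under any of the 22 alternatives; the smallest adjusted p of a member was 0.378. Directions of uncalled differences did turn, and the cause was not tested. After quantile normalization Slc37a4 was 0.0018 and Fbp2 -0.0179, and 5 genes of the whole table passed the threshold as lower in place of 3. With array weights Slc37a4 was 0.0027 and Pygb -0.0019. With the hepatocyte marker mean as a covariate Pck1 was 0.048, Slc37a4 0.048, Gyg 0.017, Tat 0.022 and Pygb -0.028, 4 members, 9 regulators, 7 hormone genes and 3 perinatal genes had lower means, and the other gluconeogenesis genes had a median of 0.011. With the interquartile range as a covariate Slc37a4 was 0.032, Gyg 0.025 and Fbp2 -0.013.

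Leaving out 1 array gave Slc37a4 from -0.038 to 0.041, Gyg from -0.053 to 0.013, Ppargc1a from -0.051 to 0.10, Gys2 from -0.029 to 0.041, Fbp2 from -0.011 to 0.040, Pygb from -0.011 to 0.081 and Macroh2a2 from -0.17 to 0.0064. Over the whole table, 2 to 6 genes then passed the threshold as lower and 0 to 1 as higher. Lower means were held by 7 to 13 other glycogen genes, with 13 without double-knockout replicate 2.

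Leaving out double-knockout replicates 3 and 5 together, chosen after seeing the data, gave G6pc 0.058, Pck1 0.15, Slc37a4 0.094, Pygl 0.011, Gyg 0.034, Macroh2a2 0.028, Pgm2 0.013, Gaa 0.014, Hnf4a 0.0089, Agxt 0.063, Hpd 0.030, Tat 0.20, Gys1 0.035, Pygb -0.028, Fbp2 -0.0069, Sult3a1 0.39, Scp2 0.043 and Gpc4 0.077. Lower means were then counted in 2 members, 5 other glycogen genes, 7 regulators, 6 hormone genes and 1 perinatal gene, with medians of 0.058 for members and 0.024 for other gluconeogenesis genes.

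Leaving out wild-type replicate 6 and double-knockout replicates 3, 5 and 6, also chosen after seeing the data, gave G6pc 0.15, Pck1 0.37, Pcx 0.028, Slc37a4 0.13, Pygl 0.010, Gyg 0.062, Macroh2a2 0.095, Pgm2 0.035, Gaa 0.029, Hnf4a 0.038, Agxt 0.25, Hpd 0.089, Tat 0.42, Gys1 0.077, Pygb -0.098, Pygm 0.026, Fbp2 -0.015, Sult3a1 0.56, Scp2 0.12, Gpc4 0.16, Pdxk 0.019 and Trp53inp2 0.068. Lower means were then counted in 1 member, 6 other gluconeogenesis, 3 other glycogen, 6 regulator, 6 hormone and 0 perinatal genes. The medians were 0.099 for members, 0.036, 0.035, 0.035 and 0.0028 for those 4 lists in turn, and 0.25 for the perinatal list.

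The labels share replicate numbers between genotypes but state no pairing, and the main fit did not use the numbers. Deviations of same-numbered arrays correlated above 0.1 in 5 of 6 pairs, and 4 of 6 wild-type arrays correlated best with their own number. Something shared by number can therefore not be set aside. With the replicate number as a block 2 genes of the whole table passed the threshold as lower in place of 3. Of the members, 7 had lower means and 0 passed. The unadjusted limma p then went from 0.15 to 0.094 for G6pc and from 0.11 to 0.069 for Pcx. It rose for Fbp1 (0.15 to 0.19) and Pygl (0.63 to 0.64) and fell for the remaining members.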

Other observations

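Some other genes of hepatic glucose and hormone handling, chosen after their values were seen, are given as values. Slc2a2, the gene of the liver glucose transporter, measured 11.52 to 11.70 in wild type, 11.42 and 11.31 on double-knockout replicates 3 and 5, and 11.50 to 11.82 on the other 4. Hsd11b1, whose enzyme regenerates active glucocorticoid, measured 11.07 to 11.32 in wild type, 10.83 and 10.88 on those replicates, and 10.98 to 11.55 on the other 4. Foxo1, a forkhead factor restrained by insulin, measured 9.52 to 9.95 in wild type, 9.34 and 9.30 on those replicates, and 9.65 to 10.16 on the other 4. Tdo2, which is known to be raised after birth, measured 5.85 to 6.67 in wild type and 7.61, 6.96, 5.44, 6.33, 5.55 and 5.85 on double-knockout replicates 1 to 6. Creb1, the cyclic AMP responsive factor, measured 9.32 and 9.40 on replicates 3 and 5, within the range of 9.24 to 9.46 on the other 10 arrays, and Nr3c1, the glucocorticoid receptor gene, 9.73 and 9.68, within 9.65 to 9.94. None of these genes passed the genotype test (limma adjusted p from 0.992 to 0.996).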
